A study of Arabidopsis thaliana with 15 samples.

Results

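The 46 genes described here encode the core machinery of the plant cell cycle and of DNA replication: A, B and D type cyclins, cyclin-dependent kinases (CDKs), CDK inhibitors of the KRP and SIM families, the MCM helicase subunits, replication fork and licensing proteins, and cytokinesis and spindle proteins. They were chosen by locus identifier, not by their values, out of 37336 genes in the count files. By role, 22 were taken as mitotic genes, 11 as S phase genes and 13 as G1 cyclins, S phase cyclins and regulators. Polyadenylated RNA was sequenced from leaf 5 of the rosette of Arabidopsis thaliana on day 21, and the plants had a 16 h day at 22 °C and 50% humidity. The quadruple mutant drdd (3 libraries, B, C and D) carries dme-2, ros1-3, dml2-1 and dml3-1. The triple mutant rdd carries ros1-3, dml2-1 and dml3-1, the single mutant dme carries dme-2, and the wild type (WT) is a segregant with all 4 genes intact (4 libraries each, A to D). DME, ROS1, DML2 and DML3 are DNA glycosylases that remove methylated cytosine. Every group, WT included, carries the transgene pAGL61::DME, in which DME is under a promoter known for activity in the ovule's central cell. The labels name 1 allele for each gene and leave unsaid whether libraries of a genotype are separate plants. A p-value here therefore reflects the scatter among libraries, part of which may be technical.

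A cell enters division in G1 when D type cyclins activate CDKA, which releases E2F factors from the retinoblastoma protein. E2F then activates genes for DNA synthesis, such as the MCM helicase that is loaded at origins by CDC6 and CDT1. From G2 on, MYB3R factors act on genes for mitosis and cytokinesis, among them B type cyclins and B type CDKs. KRP and SIM proteins inhibit CDKs, and in leaves they turn cells from division to endoreduplication, in which DNA is copied without mitosis. In an expanding rosette leaf most mesophyll cells have left division, and the stomatal lineage of the epidermis is among the last to divide.

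The starts of part of these genes hold the letters that MYB3R and E2F are known to bind. The windows below are of members that hold a searched motif and are described in full. They are 3 mitotic and 4 S phase genes from those with the lowest p among these in drdd against WT. Each window runs from 250 bases before to 30 bases after the annotated gene start in RefSeq assembly TAIR10.1, is read 5′ to 3′ on the strand of the gene, and has the matches in capitals. The searched motifs were AACGG and CNAACGG, the core of the mitosis-specific activator element of MYB3R, and TTCCCGC and TTGGCGC, letters of E2F sites, on both strands. Every CNAACGG match is also an AACGG match. The genome build of the counts is not given in the sources used here, and the windows take only the gene identifiers from them. CYCB1;2 is at chr5:1861674-1861953 on the minus strand, CYCB1;3 at chr3:3627244-3627523 on the minus strand and HIK at chr1:6324349-6324628 on the minus strand. MCM4 is at chr2:7130700-7130979 on the minus strand, PCNA1 at chr1:2262787-2263066 on the plus strand and CDT1A at chr2:13328612-13328891 on the plus strand. MCM7 at chr4:900386-900665 on the plus strand is shown as an S phase window with no match to either E2F motif.
CYCB1;2: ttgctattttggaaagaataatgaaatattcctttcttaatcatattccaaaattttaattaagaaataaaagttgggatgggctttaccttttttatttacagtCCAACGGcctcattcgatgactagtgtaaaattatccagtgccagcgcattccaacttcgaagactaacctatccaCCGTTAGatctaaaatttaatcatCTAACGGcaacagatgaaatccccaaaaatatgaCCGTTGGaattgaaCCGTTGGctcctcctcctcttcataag
CYCB1;3: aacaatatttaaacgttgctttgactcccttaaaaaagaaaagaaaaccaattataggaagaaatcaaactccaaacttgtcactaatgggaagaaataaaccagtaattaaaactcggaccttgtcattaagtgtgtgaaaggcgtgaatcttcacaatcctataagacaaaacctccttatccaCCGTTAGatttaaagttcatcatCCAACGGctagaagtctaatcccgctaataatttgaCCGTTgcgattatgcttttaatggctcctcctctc
HIK: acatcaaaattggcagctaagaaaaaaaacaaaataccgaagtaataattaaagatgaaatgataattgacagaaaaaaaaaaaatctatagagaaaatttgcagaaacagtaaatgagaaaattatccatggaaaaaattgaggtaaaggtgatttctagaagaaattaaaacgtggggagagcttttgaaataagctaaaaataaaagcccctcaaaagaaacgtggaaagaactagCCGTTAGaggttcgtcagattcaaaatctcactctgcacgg
MCM7: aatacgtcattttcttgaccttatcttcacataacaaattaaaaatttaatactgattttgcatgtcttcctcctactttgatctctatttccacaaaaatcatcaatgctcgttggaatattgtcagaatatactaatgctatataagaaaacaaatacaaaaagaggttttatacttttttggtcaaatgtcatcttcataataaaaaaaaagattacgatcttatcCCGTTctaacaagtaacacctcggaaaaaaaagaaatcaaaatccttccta
MCM4: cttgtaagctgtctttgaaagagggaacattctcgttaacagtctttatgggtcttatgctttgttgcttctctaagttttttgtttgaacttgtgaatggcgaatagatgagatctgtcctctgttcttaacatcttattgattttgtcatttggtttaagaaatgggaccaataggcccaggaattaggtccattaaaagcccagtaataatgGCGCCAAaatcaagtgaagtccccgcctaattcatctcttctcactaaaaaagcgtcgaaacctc
PCNA1: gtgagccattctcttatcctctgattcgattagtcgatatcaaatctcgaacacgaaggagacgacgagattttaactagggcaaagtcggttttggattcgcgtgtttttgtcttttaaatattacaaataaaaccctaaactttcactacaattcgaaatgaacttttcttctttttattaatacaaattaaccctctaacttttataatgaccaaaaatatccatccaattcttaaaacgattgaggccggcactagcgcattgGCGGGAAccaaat
CDT1A: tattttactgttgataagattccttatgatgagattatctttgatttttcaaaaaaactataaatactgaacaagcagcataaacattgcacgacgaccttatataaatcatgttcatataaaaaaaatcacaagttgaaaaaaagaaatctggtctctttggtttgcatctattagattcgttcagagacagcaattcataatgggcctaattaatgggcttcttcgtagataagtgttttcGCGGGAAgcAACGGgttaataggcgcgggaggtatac

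The CYCB1;2 window held 5 matches to the longer MYB3R core, CYCB1;3 held 2 and HIK 1, whereas MCM4, PCNA1 and CDT1A held 1 E2F match each and MCM7 none. Across all members, CNAACGG was found in 11 of 22 mitotic windows (50%) and in none of the 11 S phase or 13 other windows, against 5.8% of the 18548 windows of tested genes. AACGG alone was found in 16 of 22 mitotic windows (72.7%), 2 of 11 S phase windows and 4 of 13 others, against 24.9% of windows of tested genes. An E2F motif was found in 8 of 11 S phase windows (72.7%), in none of the 22 mitotic windows and in 1 of 13 others, that of CYCD3;3, against 2.28% of tested genes. TTCCCGC was in 7 S phase windows (1.48% of tested genes) and TTGGCGC in 3 (0.873%). A match is a description of the letters and not a bound site, and a window without a match says nothing about the factor.

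Libraries held 8730340 to 23302135 counts assigned to genes, with a median of 12178873, and levels are given as CPM (read counts relative to the TMM-scaled size of the library). Of the mutated genes, DML2 had means of 8.99 CPM in drdd, 6.95 in rdd, 26.6 in dme and 26.4 in WT. DML3 had 3.13, 3.22, 7.06 and 6.51 CPM and ROS1 had 61.8, 58.5, 89.1 and 81.1 CPM in the same order, so the ROS1 transcript was still abundant in ros1-3. DME, whose transcript can include that of the transgene, had means of 73.8, 85.3, 62.8 and 89.5 CPM in the same order. Of the 46 members, 44 passed the count filter. The A type cyclin CYCA2;1 (AT5G25380) and the B type cyclin CYCB2;1 (AT2G17620) did not. CYCA2;1 averaged 0.464 CPM in drdd, 0.33 in rdd, 0.541 in dme and 0.275 in WT, and CYCB2;1 averaged 0.56, 0.356, 0.377 and 0.192 CPM in the same order. Per kilobase of exon in WT, the median level was 0.92 CPM for mitotic genes, 6.71 for S phase genes and 10.9 for the others, of which the CDK inhibitor LGO was the highest at 90.9. Mitotic members had a median of 465 counts summed over all 15 libraries, with a range of 72 to 1332, and 11 of 22 were under 2 CPM in WT. S phase members had a median of 3074 counts. The median SE of the log2 fold change in drdd against WT was 0.40 for the mitotic and 0.23 for the S phase genes.

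Mitotic transcripts had higher estimates in drdd and rdd, the mutants that carry ros1-3, dml2-1 and dml3-1, and S phase transcripts had higher estimates, of a smaller size, in drdd, but no single gene passed the test. In drdd against WT all 20 tested mitotic genes and all 11 S phase genes had estimates above 0, with median log2 fold changes of 0.68 and 0.26. In rdd against WT all 20 mitotic genes were again above 0, with a median of 0.51, whereas 10 of 11 S phase genes were below 0, with a median of −0.13. In dme against WT 13 of 20 mitotic and 2 of 11 S phase estimates were above 0, with medians of 0.11 and −0.09. Over all 18598 genes tested the medians were −0.00, −0.01 and −0.01, with 49.5%, 49.1% and 47.7% of estimates above 0. These 3 comparisons share the same 4 WT libraries. Genes of a phase were high or low together in single libraries, as given below, so their signs are not independent. In bulk RNA, fewer cells of a type and less RNA per cell cannot be told apart.

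In edgeR's quasi-likelihood test with Benjamini-Hochberg adjustment over 18598 genes, 0 of 44 members were called in drdd against WT, where 1.35% of all genes were called, 0 in rdd against WT (1.08% of all genes) and 0 in dme against WT (0.0108%). The lowest adjusted p of a member was 0.121, 0.206 and 0.974 in these comparisons. At an unadjusted p under 0.05 there were 9 members in drdd against WT, where 14.2% of all genes passed. These were CYCB1;2, CYCB1;3, CYCB3;1, CYCD3;1, CDKB2;1, HIK and TPX2 with higher estimates and KRP2 and LGO with lower ones. There were 5 in rdd against WT (16% of all genes), which were CYCB1;3, CYCD3;2, KN and TPX2 higher and CDKA;1 lower. There were 2 in dme against WT (4.52% of all genes), TSO2 higher and LGO lower. DESeq2 on the same counts called LGO in drdd against WT (3.47% of all genes) and no member in rdd (3.41%) or dme (0.0539%) against WT. The authors' deposited table likewise listed LGO alone in drdd against WT (3.38% of its genes) and no member in rdd (4.7%) or dme (0.0509%) against WT.

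In drdd against WT the 3 drdd libraries stood above all WT libraries for CYCB1;3 and CYCB3;1 (6.64% of all genes did so) and below them for CYCD2;1, KRP2 and LGO (6.46%). In rdd against WT no member was separated in this way, higher (5.11% of all genes) or lower (5.16%), and neither was any in dme against WT (0.774% and 1.4%). The plot of fold changes shows the block of mitotic estimates to the right of 0 in both panels.

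**Figure D1:**
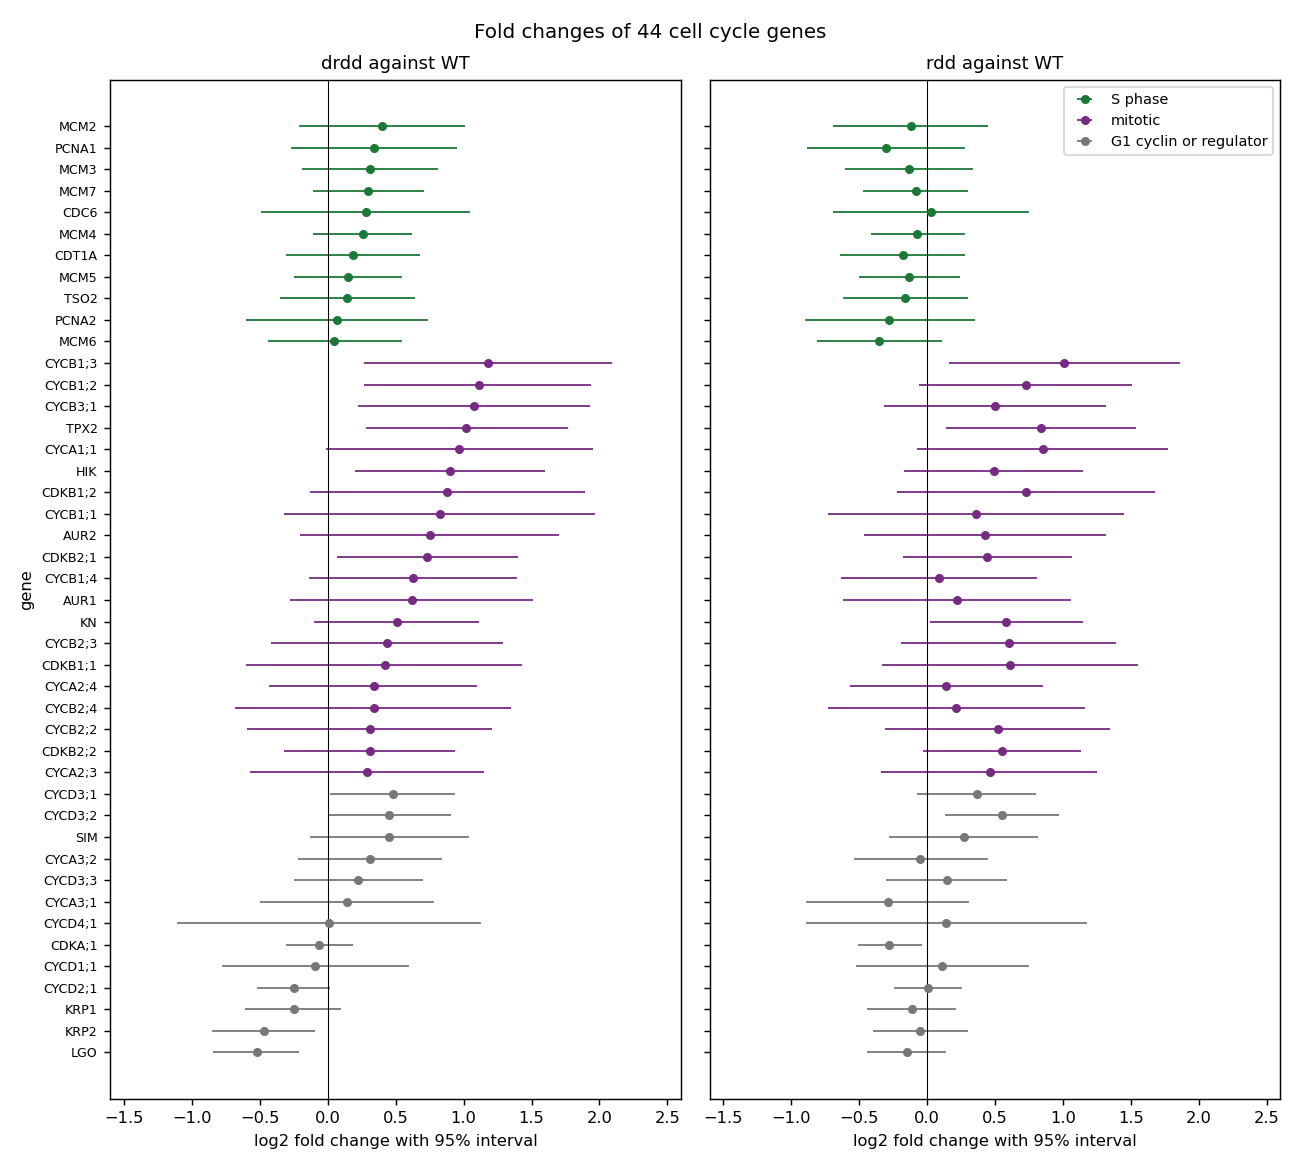
Log2 fold changes of the 44 tested members (rows, grouped by phase) in drdd against WT and in rdd against WT; points are edgeR estimates and bars 95% intervals. All 20 mitotic estimates lie above 0 in both panels, and the S phase estimates lie above 0 in drdd and, but for CDC6, below 0 in rdd; most intervals cover 0.

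Single libraries weighed on these summaries. The mean log2(CPM + 0.5) over the 20 mitotic genes was 1.31, 1.92 and 2.20 in drdd B, C and D, 1.67, 1.80, 1.73 and 1.62 in rdd A to D, 1.52, 1.31, 1.60 and 1.18 in the 4 dme libraries, against 0.97, 1.29, 0.94 and 1.77 in the WT libraries A to D. The rdd libraries lay close together, drdd B lay within the WT range, and WT D lay between rdd B and rdd C. Drdd B was the lowest drdd library for 18 of 20 mitotic genes, drdd D the highest of all 15 libraries for 9, WT D the highest WT library for 15 and WT A the lowest of all 15 for 8. The mitotic median in drdd against WT was 0.38 without drdd D (18 of 20 above 0), 0.98 without drdd B and 0.93 without WT D. In rdd against WT it was 0.80 without WT D, and in dme against WT it ranged from −0.03 without WT A to 0.49 without WT D. Scaling by library totals alone moved the median of all genes in drdd against WT to 0.088, with 0.77 for the mitotic and 0.35 for the S phase genes.

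For the 11 S phase genes the same mean was 4.13, 4.42 and 4.38 in drdd B, C and D, 3.63, 4.43, 3.78 and 3.76 in rdd A to D, 4.32, 4.11, 4.17 and 3.50 in the 4 dme libraries, against 3.88, 4.19, 3.98 and 4.27 in the WT libraries A to D. Rdd B stood above the other rdd libraries for 11 of 11 genes and dme D below the other dme libraries for 11 of 11. Drdd B was the lowest drdd library for 10 of 11, and its mean lay within the WT range. In drdd against WT the S phase median ranged from 0.19 to 0.35 over the alternatives, with 9 to 11 of 11 above 0. Without rdd B the S phase median in rdd against WT was −0.30 and all 11 estimates were below 0. It was −0.23 without WT A, −0.06 without WT D and −0.04 without rdd A. In dme against WT the S phase median ranged from −0.20 without dme A to 0.06 without dme D, with 10 of 11 above 0 in the last case.

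The difference between the S phase and the mitotic mean averaged 2.50 ± 0.32 in drdd (SD, n = 3), 2.19 ± 0.30 in rdd, 2.62 ± 0.23 in dme and 2.84 ± 0.23 in WT (n = 4 each). Rdd A, C and D had the lowest values, 1.96, 2.05 and 2.14, and rdd B had 2.63. The drdd values were 2.82, 2.50 and 2.18, the dme values 2.81, 2.80, 2.57 and 2.32, and the WT values 2.91, 2.89, 3.04 and 2.50. The rdd and WT values overlapped through rdd B and WT D, and the drdd and dme values overlapped with both. As a score over chosen members it was not tested.

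**Figure D2:**
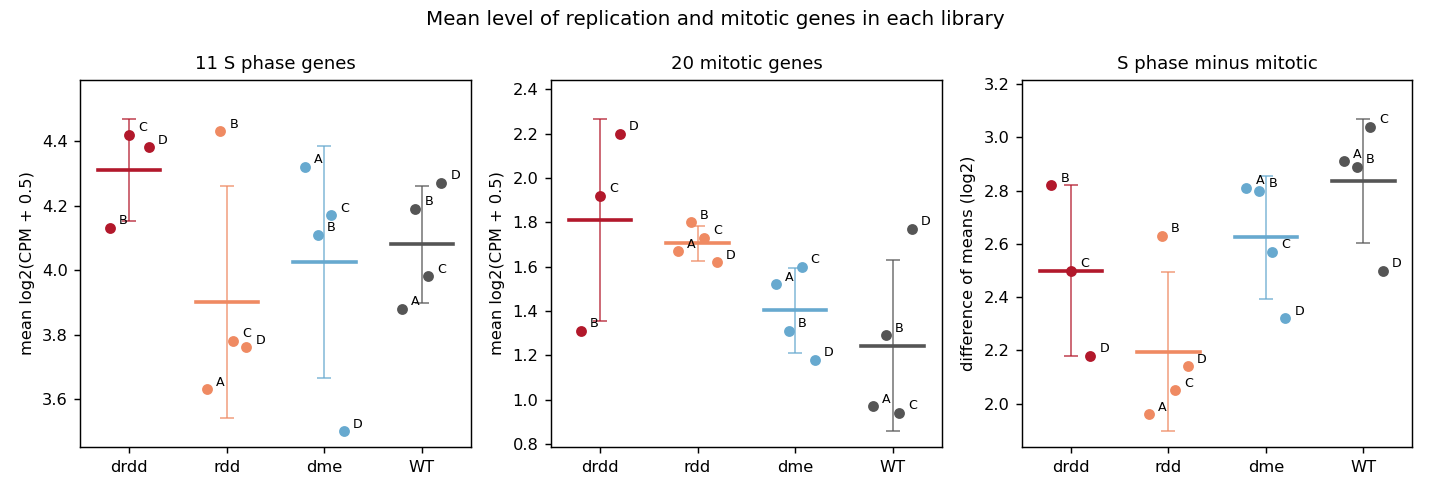
Mean log2(CPM + 0.5) of the 11 S phase genes, of the 20 mitotic genes and their difference, by genotype; points are libraries with their letters, lines are means and bars SD (n = 3 for drdd, 4 for the others). The mitotic means of the 4 rdd libraries lie between 1.62 and 1.80, above WT A, B and C, and the difference is lowest in rdd A, C and D. The vertical axes do not start at 0.

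Among A type cyclins, CYCA1;1 (AT1G44110), which acts at the entry into mitosis, had 2.51, 3.34 and 5.6 CPM in drdd B to D, 2.8, 3.66, 4.57 and 2.93 in rdd A to D, 3.06, 2.7, 3.3 and 2.78 in the 4 dme libraries, against 0.648, 1.25, 1.65 and 4.11 in the WT libraries A to D. WT A, B and C lay below all 11 mutant libraries, whereas WT D lay above all but drdd D and rdd C. The log2 fold change was 0.97 (SE 0.46, adjusted p = 0.356) in drdd and 0.85 (SE 0.43, adjusted p = 0.348) in rdd against WT. In drdd it was 0.58 without drdd D and 1.70 without WT D. CYCA3;2 (AT1G47210), a cyclin of S phase, had 22.3, 25.6 and 39.9 CPM in drdd B to D, 17.8, 24, 25.9 and 23.1 in rdd A to D, 32.1, 27.2, 16.8 and 15.3 in the 4 dme libraries, against 22.3, 24.5, 21.7 and 25.4 in the WT libraries A to D. Drdd D was the highest of the 15 libraries and the genotypes overlapped, with a log2 fold change of 0.31 (SE 0.25, adjusted p = 0.599) in drdd against WT and 0.02 without drdd D. The other A type cyclins CYCA2;3 (AT1G15570), CYCA2;4 (AT1G80370) and CYCA3;1 (AT5G43080) had estimates of 0.29, 0.34 and 0.14 in drdd and of 0.46, 0.14 and −0.29 in rdd against WT.

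B type cyclins drive mitosis, and CYCB1;3, CYCB1;2 and CYCB3;1 had the highest estimates of the 44 tested members in drdd against WT. CYCB1;2 (AT5G06150) had 2.16, 6.48 and 6.78 CPM in drdd B to D, 3.7, 4.7, 3.16 and 4.05 in rdd A to D, 2.7, 2.37, 3.81 and 2.19 in the 4 dme libraries, against 2.35, 1.48, 1.73 and 3.79 in the WT libraries A to D. Drdd C and D were the highest of all libraries and drdd B lay within the WT range, so that the log2 fold change of 1.11 (SE 0.39, adjusted p = 0.213) in drdd against WT came with overlap of the groups. In rdd against WT it was 0.73 (SE 0.37, adjusted p = 0.344). CYCB1;3 (AT3G11520) had 1.03, 2.06 and 1.77 CPM in drdd B to D, 0.902, 1.04, 1.58 and 2.07 in rdd A to D, 0.656, 0.49, 0.677 and 1.18 in the 4 dme libraries, against 0.567, 0.57, 0.743 and 0.905 in the WT libraries A to D. Its 3 drdd libraries lay above all WT libraries, and rdd overlapped with WT only through rdd A, which lay just under WT D. The log2 fold change was 1.18 (SE 0.42, adjusted p = 0.222) in drdd and 1.01 (SE 0.40, adjusted p = 0.241) in rdd against WT.

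CYCB3;1 (AT1G16330) had 1.18, 1.67 and 2.36 CPM in drdd, and 0.486, 1.14, 0.578 and 1.07 CPM in WT, with no overlap, and a log2 fold change of 1.08 (SE 0.40, adjusted p = 0.24). The rdd and dme libraries of CYCB3;1 ranged from 0.818 to 1.32 and from 1.01 to 1.86 CPM and overlapped with WT. CYCB1;1 (AT4G37490), whose product is a common marker of G2 and M phase cells, had 0.411, 1.38 and 1.47 CPM in drdd, against 0.324, 0.456, 0.413 and 1.15 CPM in WT, and a log2 fold change of 0.83 (SE 0.54, adjusted p = 0.51). The other 4 tested B cyclins, CYCB1;4 (AT2G26760), CYCB2;2 (AT4G35620), CYCB2;3 (AT1G20610) and CYCB2;4 (AT1G76310), had estimates of 0.63, 0.31, 0.44 and 0.34 in drdd and 0.09, 0.52, 0.60 and 0.21 in rdd against WT.

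B type CDKs, the plant kinases of G2 and mitosis, had higher estimates in drdd and rdd, none of them past the test. CDKB2;1 (AT1G76540) had 4.82, 7.17 and 11.2 CPM in drdd B to D, 7.31, 5.75, 6.24 and 5.86 in rdd A to D, 5.03, 4.82, 5.42 and 2.69 in the 4 dme libraries, against 4.05, 5.92, 2.89 and 5.68 in the WT libraries A to D. Drdd D was the highest library and drdd B lay within the WT range, and the log2 fold change in drdd against WT was 0.73 (SE 0.31, adjusted p = 0.309). CDKB1;2 (AT2G38620) had 0.975, 0.983 and 2.75 CPM in drdd B to D, 1.17, 2.09, 0.967 and 1.38 in rdd A to D, 1.38, 0.98, 1.19 and 1.18 in the 4 dme libraries, against 0.729, 0.797, 0.413 and 1.4 in the WT libraries A to D. Here drdd D stood apart from drdd B and C: the log2 fold change in drdd against WT was 0.88 (SE 0.47, adjusted p = 0.42) and 0.22 without drdd D. CDKB1;1 (AT3G54180) and CDKB2;2 (AT1G20930) had estimates of 0.42 and 0.31 in drdd and of 0.61 and 0.55 in rdd against WT.

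The spindle and cytokinesis genes had higher estimates in drdd and rdd as well, none of them past the test. TPX2 (AT1G03780), a protein that starts spindle microtubules, had the lowest p of the mitotic genes in drdd against WT, with 2.77, 4.72 and 6.78 CPM in drdd B to D, 3.52, 4.7, 4.31 and 4.09 in rdd A to D, 4.45, 3.92, 3.13 and 2.19 in the 4 dme libraries, against 1.46, 3.53, 1.82 and 2.55 in the WT libraries A to D. WT A, C and D lay below all drdd and rdd libraries, and WT B lay above drdd B and rdd A. Its log2 fold change was 1.02 (SE 0.35, adjusted p = 0.201) in drdd and 0.84 (SE 0.33, adjusted p = 0.239) in rdd against WT. AUR2 (AT2G25880), an Aurora kinase, had 1.18, 2.16 and 1.77 CPM in drdd B to D, 1.35, 1.99, 0.615 and 1.46 in rdd A to D, 0.875, 0.735, 1.1 and 0.589 in the 4 dme libraries, against 0.729, 1.14, 0.578 and 1.56 in the WT libraries A to D. Its drdd libraries overlapped with WT and lay above all dme libraries, with 0.75 (SE 0.44, adjusted p = 0.467) against WT and 1.02 (SE 0.44, adjusted p = 0.275) against dme. AUR1 (AT4G32830) had 1.39, 3.44 and 5.3 CPM in drdd, against 1.86, 2.73, 1.73 and 2.39 CPM in WT, with drdd D highest and drdd B lowest of these 7.

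HIK (AT1G18370) encodes HINKEL, a kinesin of the phragmoplast, the structure that builds the new cell wall. It had 3.69, 7.57 and 7.47 CPM in drdd B to D, 4.78, 5.22, 4.39 and 4.31 in rdd A to D, 4.45, 3.19, 3.64 and 3.12 in the 4 dme libraries, against 1.86, 4.22, 2.31 and 4.94 in the WT libraries A to D. Drdd C and D were the highest of all libraries and drdd B lay within the WT range, and the log2 fold change in drdd against WT was 0.90 (SE 0.33, adjusted p = 0.228). KN (AT1G08560) encodes KNOLLE, the syntaxin of the cell plate, and had 5.85, 9.43 and 9.33 CPM in drdd B to D, 8.3, 10, 7.82 and 8.35 in rdd A to D, 8.23, 4.49, 6.01 and 4.63 in the 4 dme libraries, against 3.89, 5.24, 4.96 and 8.89 in the WT libraries A to D. WT A, B and C lay below every drdd and rdd library and WT D lay among them. The log2 fold change of KN was 0.51 (SE 0.28, adjusted p = 0.442) in drdd and 0.58 (SE 0.26, adjusted p = 0.297) in rdd against WT.

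**Figure D3:**
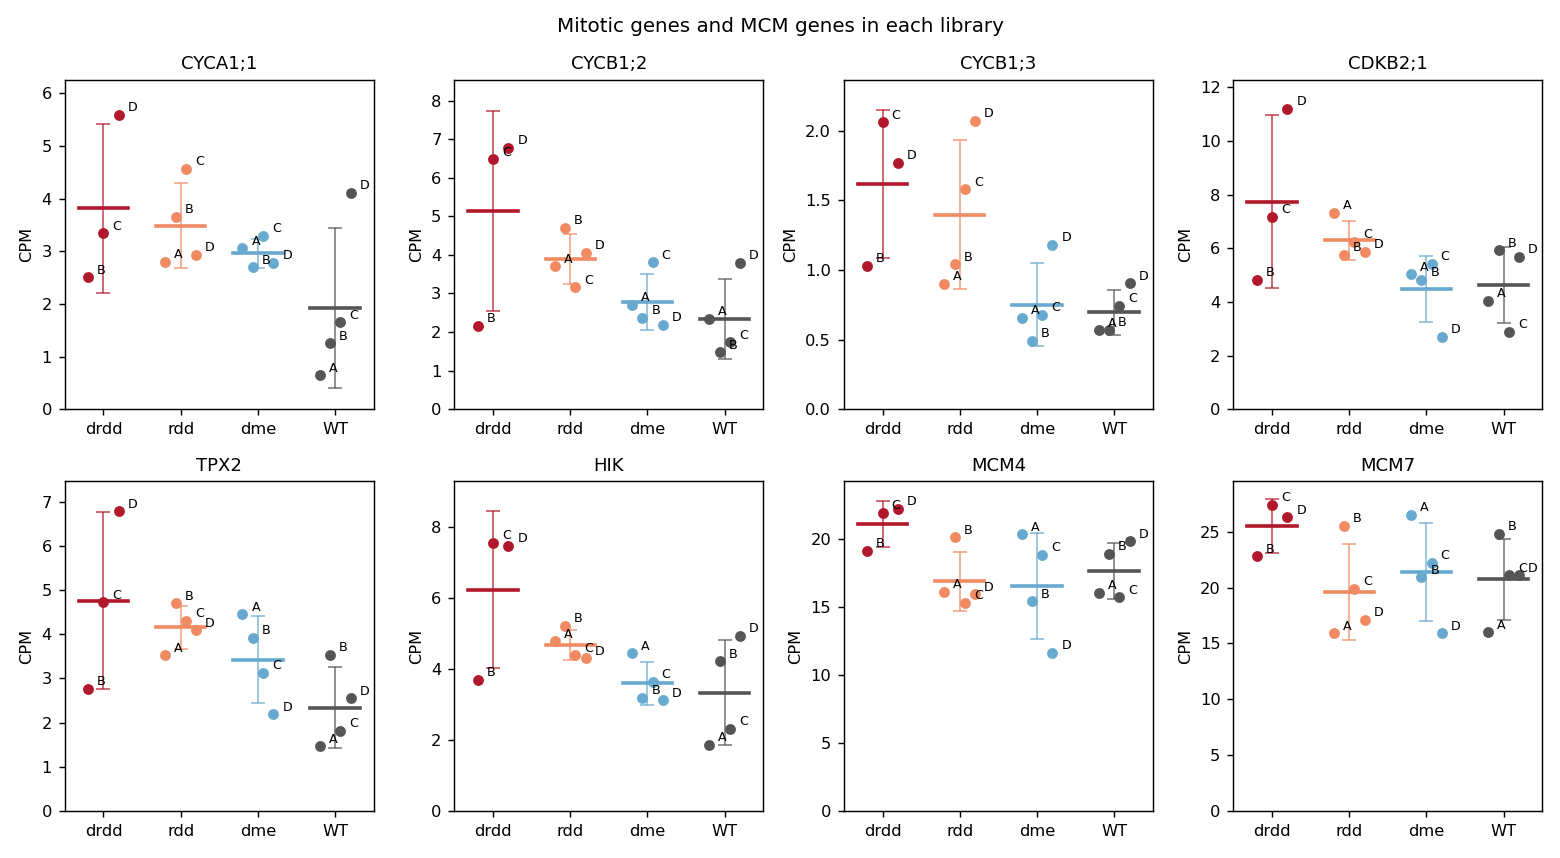
CPM of 6 mitotic genes and of MCM4 and MCM7 in each library, by genotype, with library letters; lines are means and bars SD (n = 3 for drdd, 4 for the others). For CYCB1;2, HIK and CDKB2;1, drdd B sits among the WT libraries and drdd D above them, and for MCM7 drdd C, at 27.4 CPM, is the highest library.

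The 6 MCM genes encode the subunits of the helicase that unwinds DNA at replication forks. MCM7 (AT4G02060) had 22.8, 27.4 and 26.3 CPM in drdd B to D, 15.9, 25.5, 19.9 and 17.1 in rdd A to D, 26.5, 20.9, 22.2 and 15.9 in the 4 dme libraries, against 16, 24.8, 21.1 and 21.1 in the WT libraries A to D. Drdd C was the highest library, rdd A and dme D the lowest at the same 15.9 CPM, and the genotypes overlapped. MCM4 (AT2G16440) had 19.1, 21.9 and 22.2 CPM in drdd B to D, 16.1, 20.1, 15.3 and 15.9 in rdd A to D, 20.3, 15.4, 18.8 and 11.6 in the 4 dme libraries, against 16, 18.9, 15.7 and 19.8 in the WT libraries A to D, with drdd C and D above every other library and rdd B apart from the other rdd libraries. The log2 fold changes in drdd against WT were 0.30 (SE 0.19, adjusted p = 0.505) for MCM7 and 0.26 (SE 0.17, adjusted p = 0.522) for MCM4.

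Summed over the 6 MCM genes, the level was 110, 142 and 136 CPM in drdd B, C and D, 77.4, 134, 93 and 90.3 in rdd A to D, 117, 107, 112 and 73.3 in the 4 dme libraries, against 89.2, 119, 102 and 122 in the WT libraries A to D. Drdd averaged 129 ± 16.6 CPM, rdd 98.6 ± 24.4, dme 102 ± 19.8 and WT 108 ± 15.3 (SD). Rdd A, C and D were lower than all drdd libraries and rdd B was within them. MCM2 (AT1G44900), MCM3 (AT5G46280), MCM5 (AT2G07690) and MCM6 (AT5G44635) had estimates of 0.40, 0.31, 0.15 and 0.05 in drdd against WT and of −0.12, −0.13, −0.13 and −0.35 in rdd against WT.

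Among the fork and licensing genes, PCNA1 (AT1G07370), which encodes the sliding clamp of DNA polymerases, had 10.3, 11.4 and 12.7 CPM in drdd B to D, 5.87, 12.3, 4.66 and 6.72 in rdd A to D, 10.6, 8.66, 8.72 and 5.81 in the 4 dme libraries, against 7.86, 9.11, 7.35 and 11.8 in the WT libraries A to D. Rdd A, C and D lay below all drdd libraries and rdd B between drdd C and D, and the log2 fold change was 0.34 (SE 0.29, adjusted p = 0.63) in drdd against WT and 0.64 (SE 0.29, adjusted p = 0.423) in drdd against rdd. CDT1A (AT2G31270), a licensing factor, had 10.2, 17.7 and 13.4 CPM in drdd B to D, 9.75, 13.2, 10.3 and 9.3 in rdd A to D, 14.5, 10.7, 12.4 and 8.08 in the 4 dme libraries, against 8.91, 12.4, 12.1 and 14.7 in the WT libraries A to D. Drdd C was the highest library and drdd B lay within the WT range. The log2 fold change of CDT1A in drdd against WT was 0.19 (SE 0.23, adjusted p = 0.763), and −0.04 without drdd C. PCNA2 (AT2G29570) and CDC6 (AT2G29680), which loads MCM proteins, had estimates of 0.07 and 0.28 in drdd against WT. PCNA1 and PCNA2, like AUR1 and AUR2 or the CDKB pairs, are close copies, and reads that match both may be missing from either, so their levels are uncertain.

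TSO2 (AT3G27060), a small subunit of ribonucleotide reductase, which makes the building blocks of DNA, is named, like CYCB3;1, CYCB1;1, CYCD2;1, CDKA;1, SIM and AUR1, after its values were seen. It had 98.3, 110 and 106 CPM in drdd B to D, 72.6, 109, 79.1 and 78.6 in rdd A to D, 142, 140, 186 and 71.8 in the 4 dme libraries, against 104, 89.1, 102 and 83.4 in the WT libraries A to D. Dme A, B and C were above every other library and dme D was the lowest of the 15. The log2 fold change in dme against WT was 0.51 (SE 0.21, adjusted p = 0.974), and in drdd and rdd against WT it was 0.14 and −0.16.

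D type cyclins start the cycle in response to growth signals. CYCD3;1 (AT4G34160) had 12.5, 15.5 and 15.3 CPM in drdd B to D, 12.2, 13.5, 14.4 and 13.2 in rdd A to D, 10.3, 8.82, 12.4 and 8 in the 4 dme libraries, against 6.89, 10.7, 8.92 and 14.8 in the WT libraries A to D. Its drdd libraries lay above all dme libraries and overlapped with WT through WT D. The log2 fold change was 0.48 (SE 0.22, adjusted p = 0.337) in drdd against WT and 0.54 (SE 0.22, adjusted p = 0.228) in drdd against dme. CYCD3;2 (AT5G67260) had 20.5, 29.1 and 25.6 CPM in drdd B to D, 27.9, 18.9, 29.7 and 30.4 in rdd A to D, 19.7, 25.2, 27.3 and 16.1 in the 4 dme libraries, against 15.9, 22.7, 15 and 19.8 in the WT libraries A to D. Drdd B lay under WT B, rdd B lay under WT B and D, and the other drdd and rdd libraries lay above all WT libraries. For CYCD3;2 the log2 fold change was 0.45 (SE 0.21, adjusted p = 0.356) in drdd and 0.55 (SE 0.20, adjusted p = 0.206) in rdd against WT.

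CYCD2;1 (AT2G22490) had its lowest levels in drdd, with 19.7, 16.3 and 19.8 CPM in drdd B to D, 22.7, 20.2, 26.7 and 19.9 in rdd A to D, 22.9, 24.5, 21.1 and 25.1 in the 4 dme libraries, against 24.3, 20.2, 23.5 and 20.7 in the WT libraries A to D. The 3 drdd libraries were the lowest of all 15, and the log2 fold change in drdd was −0.25 (SE 0.13, adjusted p = 0.388) against WT, −0.26 (SE 0.13, adjusted p = 0.464) against rdd and −0.33 (SE 0.13, adjusted p = 0.217) against dme. CYCD1;1 (AT1G70210), CYCD3;3 (AT3G50070) and CYCD4;1 (AT5G65420) had estimates of −0.09, 0.22 and 0.01 in drdd against WT. CDKA;1 (AT3G48750), the kinase partner of D type cyclins, had 45, 44.5 and 48.6 CPM in drdd, and 36.8, 43.5, 36.6 and 41.6 CPM in rdd, with no overlap, and 42.8 to 58.2 CPM in WT, which overlapped with both. Its log2 fold change was −0.28 (SE 0.11, adjusted p = 0.241) in rdd against WT.

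The lowest p of all members in drdd against WT was that of a CDK inhibitor. LGO (AT3G10525), also known as SMR1, promotes endoreduplication in sepal and leaf epidermis, and had 54.4, 51.4 and 51 CPM in drdd B to D, 74.5, 51.2, 76.4 and 68.6 in rdd A to D, 66, 62.4, 49.2 and 64.5 in the 4 dme libraries, against 61.1, 76.4, 79.6 and 83.2 in the WT libraries A to D. The 3 drdd libraries lay close together and below all WT libraries, but rdd B and dme C were as low. The means were 52.3 ± 1.89 CPM in drdd, 67.7 ± 11.5 in rdd, 60.5 ± 7.69 in dme and 75.1 ± 9.74 in WT (SD). The log2 fold change was −0.52 (SE 0.15, adjusted p = 0.121) in drdd against WT in edgeR, with a 95% interval of −0.84 to −0.21. DESeq2 gave an adjusted p of 0.0301, and the authors' deposited table gave a log2 fold change of −0.53 with an adjusted p of 0.0161. Over all alternatives the adjusted p ranged from 0.023 to 0.387. The lowest value came without rdd B and dme C together, the libraries as low as drdd, a setting chosen after seeing the data. In dme against WT the log2 fold change was −0.31 (SE 0.14, adjusted p = 0.974) and in drdd against rdd −0.37 (SE 0.15, adjusted p = 0.341).

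KRP2 (AT3G50630), an inhibitor of CDKA, had 14.5, 8.45 and 13.5 CPM in drdd B to D, 20.9, 14.3, 16.4 and 13.6 in rdd A to D, 17.7, 17.2, 17.4 and 18.7 in the 4 dme libraries, against 18.6, 16.9, 15.4 and 16.7 in the WT libraries A to D. The drdd libraries lay below all WT and all dme libraries, with drdd C lowest, and overlapped with rdd. The log2 fold change was −0.47 (SE 0.18, adjusted p = 0.247) against WT, −0.42 (SE 0.18, adjusted p = 0.386) against rdd and −0.55 (SE 0.18, adjusted p = 0.142) against dme. SIM (AT5G04470), which keeps trichome cells from dividing, had 7.85, 10 and 8.15 CPM in drdd, and 5.61, 5.8, 2.54 and 7.24 CPM in dme, with no overlap, and a log2 fold change of 0.71 (SE 0.28, adjusted p = 0.22) in drdd against dme. KRP1 (AT2G23430) had 53.9 to 60.9 CPM in drdd, against 52.3 to 77.9 CPM in WT, with a log2 fold change of −0.25 (SE 0.17, adjusted p = 0.515).

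**Figure D4:**
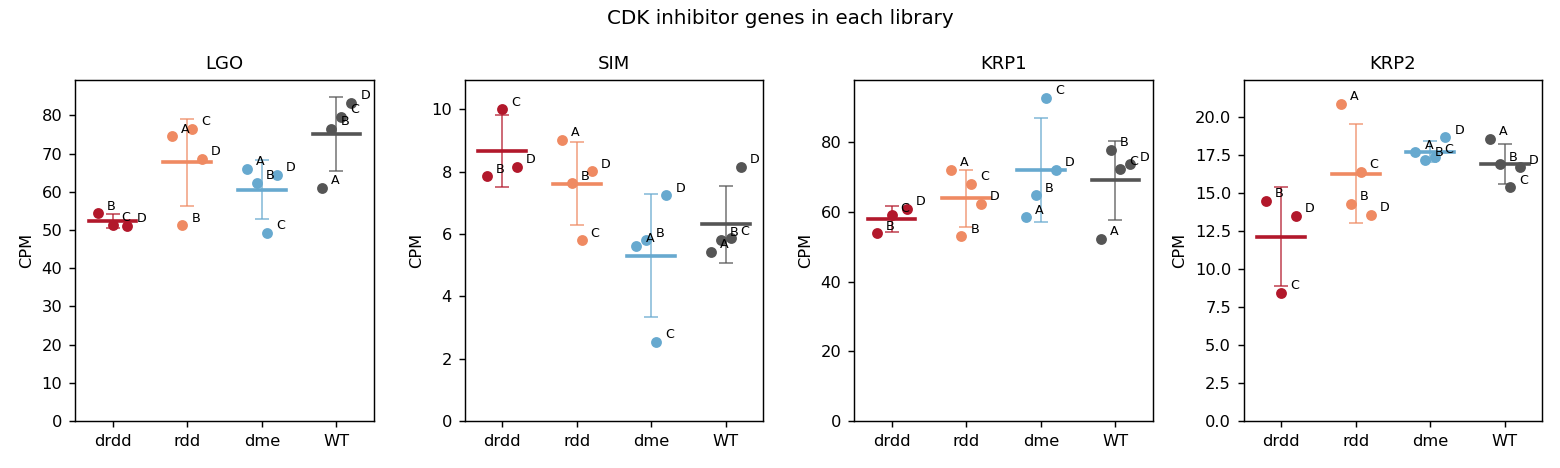
CPM of the 4 CDK inhibitor genes in each library, by genotype, with library letters; lines are means and bars SD (n = 3 for drdd, 4 for the others). LGO and KRP2 are lower in all 3 drdd libraries than in all 4 WT libraries, and for LGO rdd B and dme C are as low as drdd.

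The step from rdd to drdd, the loss of DME where the other 3 genes are already mutated, was read in the same model. All 11 S phase genes had estimates above 0, with a median log2 difference of 0.37 and a range of 0.25 to 0.64. This median was 0.30 to 0.54 over the alternatives, with 11 of 11 above 0 in each. Over all genes tested 50.9% were above 0, with a median of 0.01. Rdd B was the highest rdd library for all 11 S phase genes, so their signs are not independent, and the alternatives reuse the same libraries. The 20 mitotic genes had a median of 0.18 with 14 above 0, which was −0.13 without drdd D, 0.10 without rdd A and 0.42 without drdd B. In edgeR 0 of 44 members were called (0.468% of all genes) and 3 had an unadjusted p under 0.05 (11.3% of all genes): PCNA1 higher, KRP2 and LGO lower. No member was called by DESeq2 (2.05% of all genes) or in the authors' deposited table (3.12%). Drdd stood above every rdd library for CDKA;1 (5.8% of all genes) and below for CYCD2;1 (6.34%).

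In drdd against dme all 20 mitotic and 10 of 11 S phase estimates were above 0, with medians of 0.46 and 0.28, the exception being TSO2. Without drdd D the mitotic median was 0.24, with 14 of 20 above 0, and without dme D the S phase median was 0.14. In edgeR 0 of 44 members were called (2.26% of all genes), and DESeq2 called none (5.35%). At an unadjusted p under 0.05 there were 10 members (15.9% of all genes): CYCB1;2, CYCB1;3, CYCD3;1, CDKB2;1, SIM, HIK, AUR1 and AUR2 higher, CYCD2;1 and KRP2 lower. Drdd stood above every dme library for CYCD3;1, SIM and AUR2 (6.84% of all genes) and below for CYCD2;1 and KRP2 (7.59%).

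The interaction asks whether the difference between drdd and rdd departs from the difference between dme and WT. No member was called in edgeR (0.108% of all genes) or DESeq2 (1.04%), and no member had an unadjusted p under 0.05 (9.61% of all genes). The S phase genes had a median of 0.44 with 10 of 11 above 0, and the mitotic genes a median of −0.03 with 10 of 20 above 0. The mitotic value changed sign with single libraries and was −0.31 without WT D and 0.27 without drdd B. Scaling by library totals alone moved the median of all genes to 0.118 here and to 0.119 in drdd against dme.

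Other genes of the pathway were read from 9 lists with 78 genes, of which 74 were tested. None was called in edgeR in any of the 6 comparisons, and DESeq2 called 1 in rdd against WT, FZR3 (3.41% of all genes), and 1 in drdd against dme, MCM10 (5.35% of all genes). In drdd against WT 12 of 74 had an unadjusted p under 0.05 (14.2% of all genes), all with higher estimates, and 61 of 74 estimates were above 0, with a median of 0.15. In rdd against WT 4 had an unadjusted p under 0.05 (16% of all genes), all higher, with a median of −0.00, and in dme against WT 1 (4.52%), with a median of 0.01. There were 5 in drdd against rdd (11.3% of all genes), 9 in drdd against dme (15.9%) and 3 in the interaction (9.61%). The 21 other replication genes had a median of 0.28 in drdd against WT, 19 of 21 above 0, and −0.05 in rdd against WT. Among them TIL1, a subunit of DNA polymerase epsilon, averaged 25.2 ± 1.65 CPM in drdd, against 17.9 ± 1.38 CPM in WT (SD), with a log2 fold change of 0.50 (adjusted p = 0.155). The 8 other mitosis and cytokinesis genes had a median of 0.49 in drdd against WT, with 8 of 8 above 0, and 0.07 in rdd against WT. The 9 genes of the E2F, DP and RBR1 list had medians of 0.14 in drdd and −0.03 in rdd against WT, and the 5 histone H3.1 genes 0.05 and −0.12. In the same 2 comparisons the medians were 0.13 and −0.12 for 7 tested other cyclins, 0.19 and 0.22 for 8 other CDKs and partners, 0.02 and −0.12 for 7 tested other KRP and SMR inhibitors, 0.18 and 0.23 for the 4 MYB3R genes and 0.39 and 0.40 for 5 activators of the anaphase-promoting complex. In rdd against WT the MYB3R factor MYB3R-3 averaged 12.1 ± 1.9 CPM in rdd, against 8.51 ± 0.688 CPM in WT, with a log2 fold change of 0.51 (adjusted p = 0.106).

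Markers of the stomatal lineage, whose cells divide late in leaf growth, did not all go the same way. TMM, SPCH, AT4G31805, BASL and EPF1 were higher in every drdd library than in every WT library (6.64% of all genes did so). The lowest drdd library had 13 CPM, against 3.13 in the highest WT library, for TMM and 1.39 against 0.411 for SPCH. These values were 1.33 against 0.496 for AT4G31805, 1.49 against 0.797 for BASL and 1.64 against 1.56 for EPF1. MUTE, with 0.359 against 0.684, and SDD1, with 2.16 against 2.3, overlapped with WT. The more abundant FMA and MYB88 averaged 18.7 and 12.9 CPM in drdd, against 34.7 and 18.5 CPM in WT. The sum over the list pools these opposite differences. The stomatal lineage list of 10 genes summed to 51, 74.3 and 90.2 CPM in drdd B, C and D, 84.9, 87, 89.4 and 74.8 in rdd A to D, 61.8, 56, 68.8 and 54.1 in the 4 dme libraries, against 48.5, 66.2, 61.6 and 57.6 in the WT libraries A to D. The mitotic genes summed to 45.7, 77.9 and 95.8 CPM in drdd B, C and D, 63, 70.9, 67 and 63 in rdd A to D, 56.8, 46.2, 61.8 and 39.4 in the 4 dme libraries, against 34.9, 47.3, 33.7 and 69.3 in the WT libraries A to D. Drdd B was the lowest drdd library in both sums, although it was above all WT libraries for TMM, SPCH, AT4G31805, BASL and EPF1. All rdd libraries were above all WT libraries in the stomatal sum, and WT D was high in the mitotic sum only. In drdd against WT 3 of 9 tested list genes were called higher in edgeR and 1 lower, where 1.35% of all genes were called. Higher were the receptor gene TMM with 20.3 CPM in drdd, against 1.61 in WT (adjusted p = 0.00879), AT4G31805 with 3.26 CPM in drdd, against 0.255 in WT (adjusted p = 0.0101), and SPCH, the factor that begins the lineage, with 3.8 CPM in drdd, against 0.221 in WT (adjusted p = 0.0278). Lower was FMA, a factor of guard cell fate, with 18.7 CPM in drdd, against 34.7 in WT (adjusted p = 0.0306). In rdd against WT 4 had an unadjusted p under 0.05 in edgeR (16% of all genes) and the lowest adjusted p was 0.0535. TMM, SPCH, AT4G31805 and EPF1 were higher in every rdd library than in every WT library as well (5.11% of all genes). Their lowest rdd libraries had 4.44, 1.44, 1.03 and 1.71 CPM in this order. BASL, with 0.56 CPM in the lowest rdd library, and the other tested list genes overlapped with WT. The peptide gene EPF2 did not pass the count filter and was not tested. It was at 0 in every drdd library but not in every library of rdd, dme or WT. The part of the stomatal lineage in the mitotic values was not tested.

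**Figure D5:**
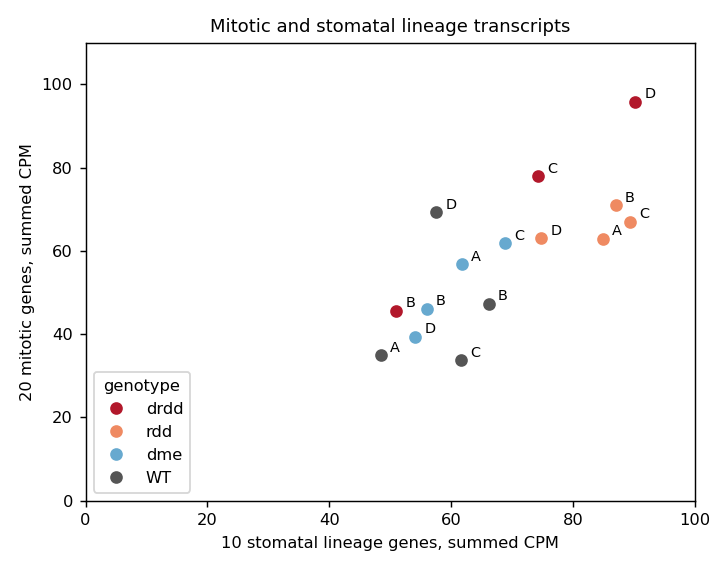
Summed CPM of the 20 mitotic genes against summed CPM of the 10 stomatal lineage genes; each point is a library with its letter, coloured by genotype. The rdd libraries lie between 74.8 and 89.4 CPM on the stomatal axis, drdd D is highest on both sums, and WT D is high on the mitotic axis at 69.3 CPM. The stomatal sum pools TMM, SPCH, AT4G31805, BASL and EPF1, which were higher in all drdd libraries than in WT, with genes that were not. Among the latter, FMA and MYB88 had lower means in drdd.

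Lists for other tissues and for leaf age were summed in the same way. The meristem genes WUS and CLV3 were at 0 in every library, and STM in every drdd, dme and WT library. The meristem list of 7 genes still summed to 69.5 to 87.3 CPM in drdd, 64.5 to 76.4 in rdd, 52 to 70.5 in dme and 52.5 to 65 in WT, of which the receptor kinase gene CLV1 gave a mean of 77.8 CPM in drdd, 70.7 in rdd, 60.4 in dme and 56.4 in WT. Genes of floral organ identity summed to at most 1.93 CPM in all libraries but rdd D, which had 16.8. The guard cell list of 5 genes, which shares FMA with the stomatal list, averaged 103 ± 13.9 CPM in drdd, 145 ± 14.8 in rdd, 114 ± 15.3 in dme and 117 ± 10.6 in WT (SD). The senescence list of 7 genes, in which SAG12 was at 0 throughout, summed to 103, 51.8 and 50.4 CPM in drdd B, C and D, 24.8 to 27.9 in rdd A, C and D with 99.8 in rdd B, 74.3 to 98.8 in dme, and 226, 21.3, 57.4 and 29 in the WT libraries A to D. Drdd B and WT A, both low in mitotic transcripts, were the highest of their genotypes on this list. Rdd B was likewise the highest rdd library on it and had the highest mitotic mean of rdd, and WT C had the lowest mitotic mean of all libraries without a high senescence sum. The mesophyll photosynthesis list of 11 genes, the defining genes of a green leaf, summed to 39800, 48400 and 50900 CPM in drdd B, C and D, 51200 to 61000 in rdd, 52900 to 64300 in dme and 44000 to 60900 in WT. Drdd B was the lowest of the 15 libraries. In drdd against WT 5 of the 11 had estimates above 0, with a median of −0.11, and in edgeR 5 had an unadjusted p under 0.05 (14.2% of all genes). None was called there, and the lowest adjusted p was that of RBCS2B, a small subunit of Rubisco (log2 fold change −0.74, adjusted p = 0.0949). In drdd against dme 1 of the 11 was called higher and 2 lower (2.26% of all genes). The part of leaf age and of mesophyll in the mitotic values was not tested.

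Within genotypes, the mitotic genes spread about as much as other genes of their level. The pooled SD on the log2 scale had a median of 0.41 for the mitotic genes, from 0.30 for CDKB2;2 to 0.56 for CYCB2;4, against 0.40 for all tested genes in the same range of CPM. The S phase genes had a median of 0.33, from 0.23 for MCM4 to 0.46 for CDC6, against 0.22 for genes in their range. By position in TAIR10.1, 10 of 46 members (21.7%) lie within 2 Mb of a mutated gene, against 17.6% of tested genes. SIM lies 41.7 kb from DME, CYCD3;1 38 kb from DML3, LGO 193 kb from DML2, CYCB1;3 537 kb from DML2 and CYCB1;2 541 kb from DME. Where the compared groups differ in the nearby mutated gene, the mutant allele and the DNA linked to it cannot be told apart for these genes. Drdd and dme share dme-2, and drdd and rdd share dml2-1 and dml3-1.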

How the data were processed

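RNA-seq reads from 15 libraries were processed by the submitters, whose processing notes name FastQC, Trim Galore, STAR, HTSeq and DESeq2 without versions. For genome build, annotation and strand setting the sources used here give nothing. The deposited files hold whole-number read counts per gene and library. The authors' deposited tables of comparisons hold mean normalised signal, log2 fold changes with their errors, a test score and p-values. Lines that name no gene (1.54 to 2.17% of reads with no feature, 0.117 to 0.176% ambiguous) stayed out.

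Genes were kept with edgeR's expression filter (minimum count 10, smallest group 3), which left 18598. All 15 libraries were fitted in 1 model with edgeR 4.0.16 (robust quasi-likelihood, R 4.3.3, TMM factors 0.953 to 1.09, biological coefficient of variation 0.266, 11 residual degrees of freedom). P-values were adjusted over all genes by Benjamini-Hochberg, with a threshold of 0.05. Alternatives were DESeq2 1.42.0, other scalings and filters, fewer libraries and a replicate block. The scripts were tested on simulated data. Values per library are given for called members and, in each role, for the 2 members with the lowest unadjusted p in drdd against WT; any others were chosen after their values were seen. The members, gene lists and tests were chosen with earlier results of these data known. A further promoter window is not reported here.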

Additional observations from a re-analysis of the deposited data

Results flagged for a closer look

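In 63 groups of library values examined, 1 held a library that stood apart from the rest. MCM4 had 20.1 CPM in rdd B, against 15.3 to 16.1 CPM in the other rdd libraries, and the gap to the nearest of them was 0.838 of the range of the group, above Dixon's critical value for 4 libraries. Chance flags about 1 in 20 such groups. Rdd B was also the highest rdd library for all 11 S phase genes.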

How the results depend on the processing

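No member was called in any comparison under the alternatives but for LGO in drdd against WT, where 1 member was called with DESeq2 and 1 without dme C and rdd B together, a setting chosen after seeing the data. Leaving out single libraries gave 0 members in each comparison. The log2 fold change of CDT1A in drdd against WT was −0.04 without drdd C and reached 0.37 without drdd B, and it was the 1 value of 410 fold changes of named members that changed direction. The difference between S phase and mitotic means was lower in dme, rdd and drdd than in WT in 38 of 38 settings, counted over these comparisons together. The settings reuse the same libraries, whose values overlapped between the genotypes. Over all genes, edgeR called 251 in drdd against WT (105 to 318 without single libraries, 643 with DESeq2), 200 in rdd against WT (93 to 341, 632), 87 in drdd against rdd (19 to 126, 381), 420 in drdd against dme (126 to 494, 992) and 20 in the interaction (6 to 45, 193). In dme against WT 2 genes were called, and 0 to 10 over the alternatives. With a replicate block, 0 members were called in all 6 comparisons, and 139 genes in drdd against WT, 111 in rdd against WT and 225 in drdd against dme. Libraries with the same letter were in the median no more alike than others. The correlation of deviations had a median of −0.0332 (−0.503 to 0.474) over 21 same-letter pairs and 0.0455 (−0.46 to 0.522) over 63 others. These medians cannot exclude a batch shared by some letters. At a median of 465 counts over all libraries, the depth limits the mitotic genes most.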
